A study of Mus musculus with 12 samples.

Results

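This section describes gene expression in cultured mouse astrocytes exposed to amyloid-beta 1-42 (Aβ), set against unexposed cultures. The comparison rests on 4 of the series' 12 RNA sequencing libraries, chosen by their labels: 2 libraries labelled as Aβ-exposed and the 2 libraries labelled as their controls. All 4 came from cortex and hippocampus of 2-month-old wild-type C57BL/6 mice. The exposed cultures had received Aβ at 20 µM, for 72 hours in the labels of replicate 1 and 73 hours in those of replicate 2, and the controls were untreated. The other 8 libraries formed a pair of experiments with controls of their own. The first compared untreated astrocytes of 6-month-old mice of the 5X APP Alzheimer's model (called AD here; the series text gives their age as 5 months) with wild-type C57BL/6 mice of that age. The second compared untreated astrocytes of 4-month-old Ogt cKO mice with their controls. Both of those groups, told apart by their descriptions, carry the genotype label Glast-CreERT2::Ogtfloxp/Y, in which a Cre recombinase driven by the astrocyte gene Glast acts on a floxed Ogt gene. The deposited table lists 54532 genes. Of these, 12773 reached 1 FPKM in at least 2 of the 4 Aβ libraries and were tested. FPKM are fragments counted in proportion to gene length and to a library size, so levels can be set side by side between genes. The library size behind these values was not the total of reads of each library.

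Astrocytes are the support cells of the central nervous system: they take up glutamate, feed neurons, ensheathe vessels and become reactive around injury and amyloid plaques. Aβ 1-42 is the aggregating peptide cut from the amyloid precursor protein. Innate immune cells sense such aggregates through scavenger and pattern recognition receptors. These feed the NF-kB pathway, which drives cytokine and chemokine genes, and the interferon pathway, in which secreted interferon acts through JAK kinases and STAT factors on genes that carry an interferon-stimulated response element.

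Reads recovered from the FPKM were 16916519 to 18285286 per library in these 4 libraries. The replicates correlated with a Pearson r over genes of 0.987 (controls) and 0.985 (Aβ) on the log2(FPKM + 1) scale, against 0.856 to 0.876 between groups. Dissociated tissue was cultured with no sorting step in the labels, and nothing states whether replicates were separate cultures or animals. The p-values thus measure only a spread between libraries, which the main fit shared over all 12 libraries of the series. The astrocyte label was checked against marker genes. Gfap, the intermediate filament of astrocytes, stood at 62.3 and 60.1 FPKM in the controls, Aldh1l1 at 13.6 and 14.0 FPKM and the water channel Aqp4 at 1.47 and 2.31 FPKM. The smooth muscle actin Acta2 stood at 3550.4 and 3143 FPKM and the macrophage lysozyme Lyz2 at 1592 and 2819 FPKM in the same libraries. Summed over a list of 30 astrocyte markers, the level was 1055 and 983 FPKM in the controls and 1229 and 884 FPKM with Aβ. The sums over 22 microglia and macrophage markers (2619.7 and 4307 FPKM in the controls) and 12 pericyte and smooth muscle markers (4634 and 4158 FPKM) were larger. The libraries thus held RNA of several cell types beside astrocytes, and in bulk RNA fewer cells of a type and less RNA per cell cannot be told apart.

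With Aβ, inflammatory, interferon and antigen presentation genes were higher, and genes of cholesterol synthesis, extracellular matrix and the contractile apparatus were lower. A gene was called when its adjusted p in limma was under 0.05 and both libraries of one group lay above both of the other. By that rule 4986 of 12773 genes (39.0%) were called, 2833 higher (22.2%) and 2153 lower (16.9%). The higher share of the calls was 56.8%. It moved both ways with the scaling, to 46.8% under quantile normalization of the libraries and 61.9% after rescaling to the total of reads. The change was at least 1 on the log2 scale for 1576 of the higher genes (12.3% of those tested) and 592 of the lower ones (4.63%). The groups did not overlap at 10060 genes (78.8%; 36.7% with Aβ higher and 42.1% with it lower), of which 5074 were not called. The median change over all genes tested was -0.05 on the log2 scale. Each library was left out in turn, and counts without it are given below in the order control 1, control 2, Aβ 1, Aβ 2. The genes called were then 2735, 4113, 2919 and 3316, with 1805, 2607, 1896 and 2099 higher and 930, 1506, 1023 and 1217 lower. Under the non-overlap part of the rule, leaving out a library could remove a call but could not reverse it. Fits that left out other experiments gave more calls, 5945 with the 4 libraries alone and 7314 with the 8 libraries without the AD experiment. With the 4 libraries alone these genes, described below as not called, passed: Ptgs2 (adjusted p 0.00086), Cxcl12 (0.0058), Hspb1 (0.0075), Spp1 (0.0079), Cdh5 (0.0080), Nlrp3 (0.0089), Cx3cl1 (0.014), Stab1 (0.016), Cd5l (0.026), Vim (0.026), Olig1 (0.029) and Ftl1 (0.043). Without the AD experiment Ebp, C1qb, Jak1, Aqp4, Lyz2 and Mgea5 passed as well. Single libraries also decided calls: Gfap passed as lower without Aβ library 1 (adjusted p 0.015), Hmgcs1 as lower without control 1 (0.026), Jak1 as higher without control 2 (0.025) and Aqp4 as higher without Aβ library 2 (0.014). With no filter on low values the calls of Fth1 (adjusted p 0.20), Rps2 (0.079), Csf1 (0.053) and Cx3cr1 (0.053) were lost. The 22.2% and 16.9% of all genes are the shares against which the counts of list members below are to be read. A list member that passed the filter only through the group where it is high had to differ, so the count over members with at least 1 FPKM in all 4 libraries (called detected throughout) is given beside the lists it bears on most.

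**Figure D1:**
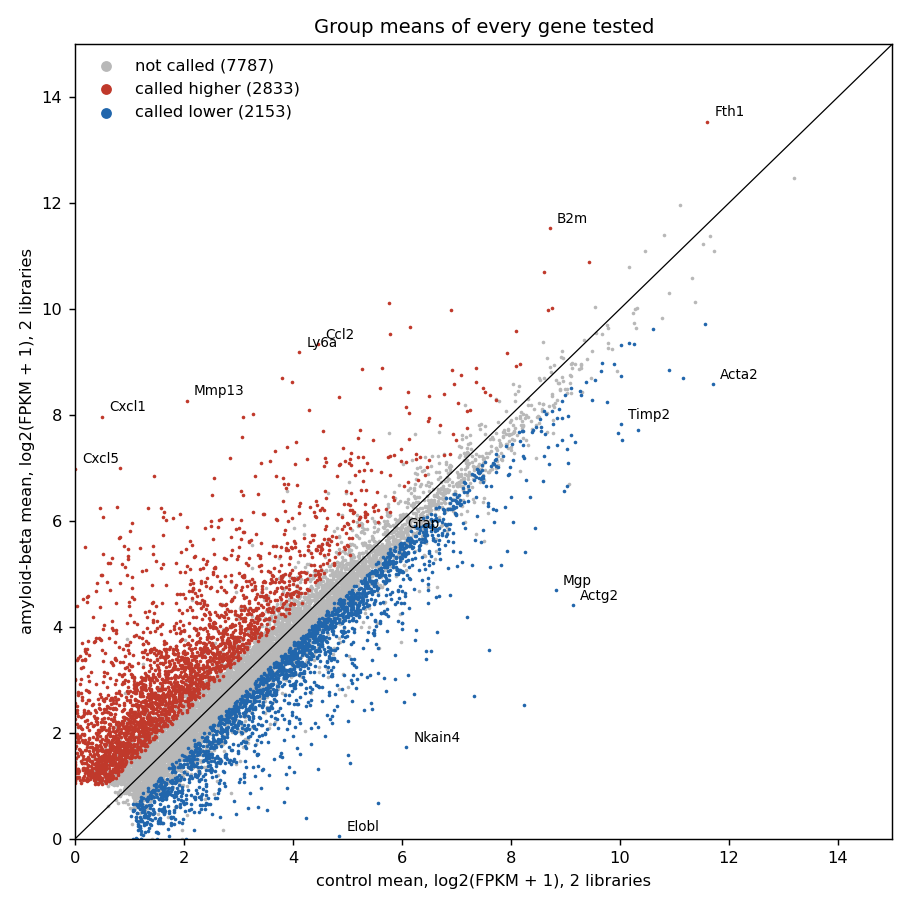
Mean log2(FPKM + 1) of the 2 control libraries (x axis) and of the 2 Aβ libraries (y axis) for each of the 12773 genes tested, with the 2833 called higher in red, the 2153 called lower in blue and the line of equal levels in black. Cxcl1 and Cxcl5 lie near 0 in the controls and far above the line, whereas Actg2, Mgp, Nkain4 and Elobl lie far below it.

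The 12 largest rises included chemokines, innate receptors and interferon-induced genes. Cxcl1, a neutrophil-attracting chemokine, was at 0.568 and 0.246 FPKM in the controls and 243 and 255 FPKM with Aβ, a 612-fold ratio of means and a log2 change of 7.48 (SE 0.23, adjusted p 5.2e-07). Cxcl5, a chemokine of the same family, was listed at 0 in both controls and at 106 and 145 FPKM with Aβ (adjusted p 4.6e-07). The collagenase Mmp13 went from 3.94 and 2.35 to 319 and 295 FPKM (log2 change 6.24, SE 0.82). For all 3 the lowest Aβ library was far above the highest control. The formyl peptide receptor Fpr1, which senses bacterial and mitochondrial peptides, was at 0.357 and 0.391 FPKM in the controls and 94.3 and 55.4 FPKM with Aβ. The scavenger receptor Marco was at 0.461 and 0.389 FPKM without Aβ and 68.7 and 64.0 FPKM with it. Ly6a (Sca-1), an interferon-inducible surface protein also found on endothelial cells, already had 16.6 and 16.0 FPKM in the controls and reached 511 and 654 FPKM. The remaining 6 of the 12 were H2-Q6, Ifit1, Irf7, Rsad2, Ifit3b and Usp18, with log2 changes from 4.91 (Usp18) to 6.17 (H2-Q6).

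Actg2, an actin of visceral smooth muscle, was at 548 and 571 FPKM in the controls and 17.3 and 23.1 FPKM with Aβ (log2 change -4.74, SE 0.98, adjusted p 0.0056). Acta2 went from 3550.4 and 3143 to 413 and 351 FPKM (log2 change -3.13). Mgp, a matrix protein that inhibits calcification, went from 478 and 425 to 26.4 and 23.3 FPKM (log2 change -4.13). In each of these the 2 groups were far apart and the replicates close. Elastin (Eln) was at 16.6 and 18.9 FPKM in the controls and 0.365 and 0.263 FPKM with Aβ (adjusted p 0.0095, and 0.052 without control replicate 1). Aldh1a2, which makes retinoic acid, was at 43.0 and 20.8 FPKM without Aβ and 1.33 and 2.03 FPKM with it. Cyp26b1, which degrades retinoic acid, fell as well, from 30.9 and 31.4 to 2.27 and 1.75 FPKM. The glutamate transporter Slc1a6 went from 69.0 and 60.8 to 4.25 and 5.65 FPKM. The mesothelial surface protein Msln went from 49.1 and 97.2 to 5.08 and 6.20 FPKM. Elobl, Nkain4, Igfbp6 (a binding protein of insulin-like growth factors) and the transcriptional cofactor Eya2 completed the 12, with log2 changes from -4.67 (Elobl) to -3.13 (Eya2). Summed pericyte and smooth muscle markers, most of which was Acta2, were at 4634 and 4158 FPKM in the controls and 508 and 447 FPKM with Aβ. The part of these markers in the falls was not tested.

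**Figure D2:**
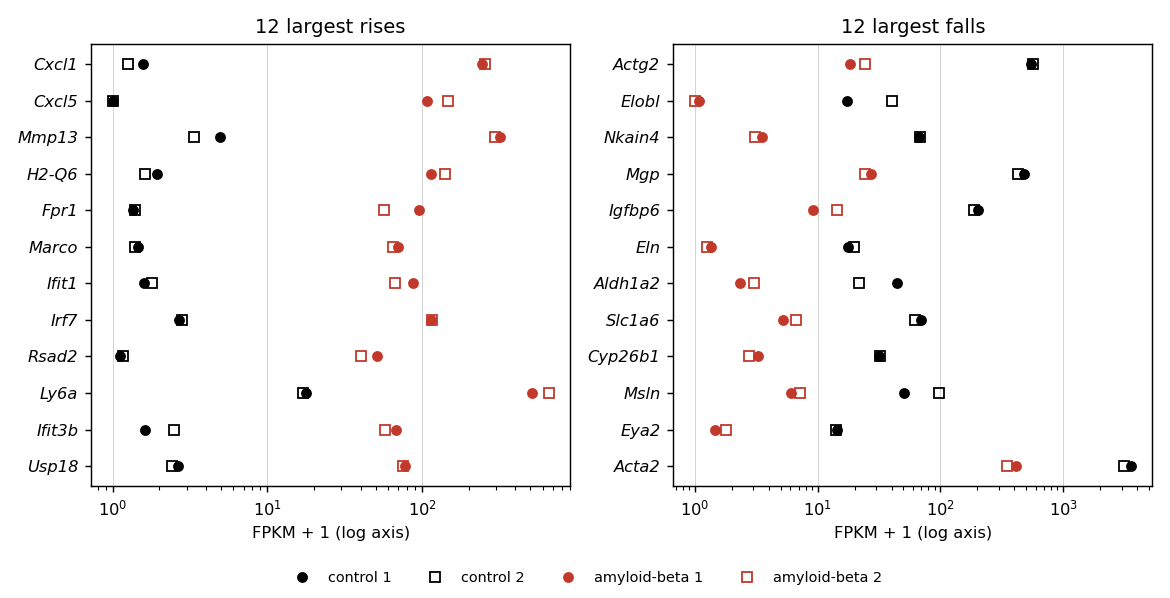
FPKM + 1 on a log axis in each of the 4 libraries (black for controls, red for Aβ; filled circles for replicate 1, open squares for replicate 2) for the 12 genes that rose most and the 12 that fell most. In all 24 genes both red points lie on the same side of both black points.

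Interferon-stimulated genes, the antiviral programme switched on by type I and II interferon, rose at every member measured: 41 of 42 passed the filter and all 41 were called higher (median log2 change 3.84), against 22.2% of all genes tested. Of these, 20 had at least 1 FPKM in all 4 libraries, and all 20 were higher. Oas1g, a sensor of double-stranded RNA, was at 0.253 and 0.492 FPKM in the controls and 20.3 and 19.0 FPKM with Aβ (log2 change 3.92, adjusted p 3.1e-06). Ifi44 was at 0.106 and 0.103 FPKM without Aβ and 22.5 and 21.6 FPKM with it. The guanylate-binding protein Gbp3 was at 0.580 and 0.917 FPKM without Aβ and 52.6 and 47.4 FPKM with it. Rsad2 (viperin), an antiviral enzyme, was at 0.109 and 0.159 FPKM in the controls and 50.1 and 39.2 FPKM with Aβ. The controls were thus close to 0 and the Aβ libraries far above them. Irf7, the factor that amplifies interferon production, stood at 1.68 and 1.78 FPKM without Aβ and 114 and 114 FPKM with it. Usp18, which restrains interferon receptor signalling, was at 1.63 and 1.40 FPKM without Aβ and 76.0 and 73.6 FPKM with it. Stat2, which carries the interferon signal to the nucleus, was at 3.61 and 4.24 FPKM without Aβ and 34.7 and 31.7 FPKM with it. Over the wider JAK-STAT list 9 of 22 measured genes were higher (7 of the 20 detected throughout) and 0 lower, among them Jak2 (2.97 and 5.15 to 14.6 and 14.7 FPKM) and the receptor chain Ifnar2 (14.2 and 14.1 to 29.7 and 31.5 FPKM). Jak1 (log2 change 0.49) and Ifngr2 (0.23) were not called. Ifnb1, the gene of interferon beta, did not pass the filter. It was at 0 in both controls and at 1.02 and 0.149 FPKM with Aβ.

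The interferon-stimulated response element, searched as GAAANNGAAA on both strands, lay in the promoter window (250 bases before to 50 after the start, RefSeq, build GRCm38.p6) of 21 of the 30 interferon-list genes with a window (70.0%), against 3.99% of all genes with a window. The windows of Ifit1 (chr19:34640639-34640938, plus strand, 2 matches) and Isg15 (chr4:156200769-156201068, minus strand, 3 overlapping matches) are shown 5′ to 3′ because Ifit1 was among the largest rises and Isg15 is the ubiquitin-like interferon product. Capitals mark the matches, on either strand.
Ifit1: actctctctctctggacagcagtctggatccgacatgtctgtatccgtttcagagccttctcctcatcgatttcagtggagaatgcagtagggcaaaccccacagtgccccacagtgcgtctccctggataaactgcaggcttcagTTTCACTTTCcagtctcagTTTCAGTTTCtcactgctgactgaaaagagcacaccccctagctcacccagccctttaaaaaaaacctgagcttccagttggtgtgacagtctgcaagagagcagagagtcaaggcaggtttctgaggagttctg
Isg15: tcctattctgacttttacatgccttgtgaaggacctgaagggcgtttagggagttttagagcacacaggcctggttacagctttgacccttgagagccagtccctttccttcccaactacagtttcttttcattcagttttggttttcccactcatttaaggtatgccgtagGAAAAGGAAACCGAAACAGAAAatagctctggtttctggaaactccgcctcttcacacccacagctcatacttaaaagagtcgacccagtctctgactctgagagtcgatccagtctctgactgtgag
A match describes these letters and is not a test of binding. Among MHC class I genes 5 of 17 windows (29.4%) held the element. The NF-kB element, searched as GGGNNNTTCC on both strands, lay in 11 of 27 windows of NF-kB list genes (40.7%) and 6 of 15 of chemokine genes (40.0%), against 6.31% of all genes with a window. The windows of the neutrophil chemokines Cxcl1 (chr5:90890995-90891294, plus strand) and Cxcl2 (chr5:90903649-90903948, plus strand) each held 3 matches, some overlapping.
Cxcl1: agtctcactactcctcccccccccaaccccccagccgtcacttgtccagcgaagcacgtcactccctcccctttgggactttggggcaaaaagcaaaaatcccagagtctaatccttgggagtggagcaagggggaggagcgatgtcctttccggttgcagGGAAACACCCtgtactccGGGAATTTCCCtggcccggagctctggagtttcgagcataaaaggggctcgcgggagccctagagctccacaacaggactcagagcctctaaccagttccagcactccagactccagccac
Cxcl2: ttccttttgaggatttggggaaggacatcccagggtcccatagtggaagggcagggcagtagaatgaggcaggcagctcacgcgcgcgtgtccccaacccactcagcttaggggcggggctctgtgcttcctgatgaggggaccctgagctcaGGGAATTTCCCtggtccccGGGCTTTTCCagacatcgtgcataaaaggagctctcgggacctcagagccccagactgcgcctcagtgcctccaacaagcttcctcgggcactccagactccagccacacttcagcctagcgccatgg
The sterol regulatory element TCACNCCAC was in 1 of 16 windows of cholesterol genes, that of Hmgcs1, against 1.44% of all genes with a window. The CArG box was in 0 of 4 windows of smooth muscle marker genes, against 1.81%, which says only that these letters were not in these windows.

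MHC class I presentation, which displays peptides cut by the immunoproteasome, was higher at all 20 measured genes (median log2 change 2.19), 16 of which had at least 1 FPKM in all 4 libraries. The light chain B2m went from 416 and 420.1 to 3181 and 2691 FPKM. The heavy chain H2-K1 went from 71.8 and 67.7 to 779 and 842 FPKM. The class I transactivator Nlrc5 was at 0.258 and 0.366 FPKM in the controls and 6.38 and 6.68 FPKM with Aβ. The immunoproteasome subunit Psmb8 was at 3.61 and 2.63 FPKM without Aβ and 42.4 and 43.9 FPKM with it (log2 change 3.43, SE 0.26). All of these but Nlrc5 had more than 1 FPKM in both controls. H2-Q4, H2-Q6 and H2-Q7 (log2 changes 4.27, 6.17 and 4.48) are close copies of each other, and reads could be split between them. Of the class II list 4 of 9 measured genes were higher and 1 lower. The co-stimulator Cd86 was at 1.18 and 1.05 FPKM in the controls and 8.58 and 5.21 FPKM with Aβ. The co-stimulator Cd80 fell from 20.7 and 23.7 to 6.35 and 6.21 FPKM. The class II chain H2-Aa and the transactivator Ciita did not pass the filter, and H2-DMb1 (log2 change -0.23) was not called.

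NF-kB targets and feedback genes were higher at 25 of 35 measured members and lower at 1 (median log2 change 2.10), and at 15 and 1 of the 24 detected throughout (1.52). Cxcl2 was at 1.14 and 0.863 FPKM in the controls and 49.4 and 60.3 FPKM with Aβ. Ccl2, a monocyte chemokine, was at 26.9 and 15.3 FPKM without Aβ and 569.9 and 717 FPKM with it. Nfkbiz, an inducible NF-kB cofactor, was at 2.60 and 4.18 FPKM without Aβ and 27.0 and 30.3 FPKM with it. Il1b, the pyrogenic interleukin, was at 1.15 and 0.392 FPKM in the controls and 27.5 and 27.7 FPKM with Aβ. Tumour necrosis factor (Tnf) was at 0.938 and 2.18 FPKM without Aβ and 25.1 and 12.1 FPKM with it. Il6 was at 1.22 and 1.78 FPKM without Aβ and 10.1 and 8.88 FPKM with it. The groups of these called genes did not overlap, as the rule for a call requires. The call of Tnf (adjusted p 0.0062) was lost without control 1 or Aβ 1. The subunit gene Rela was not called (58.7 and 56.2 FPKM in the controls, 60.0 and 68.4 FPKM with Aβ), nor was Ptgs2, the inducible cyclooxygenase (log2 change 1.41, SE 0.89). The 1 lower gene was Csf1, a macrophage growth factor, at 186 and 173 FPKM without Aβ and 115 and 96.0 FPKM with it; its call was lost with any of the 4 libraries left out (adjusted p 0.13, 0.071, 0.06 and 0.14).

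Chemokine genes were higher at 17 of 21 measured members and lower at 0 (median log2 change 3.59), and higher at 11 of the 14 detected throughout. With the 4 libraries alone 20 were higher and 1 lower. Cxcl12 (log2 change 1.07) and Cx3cl1 (0.64) were among the 4 not called. Among interleukins and colony-stimulating factors 13 of 22 were higher and 3 lower, but of the 13 detected throughout 4 were higher and 3 lower (median 0.16, against 1.34 over the 22). Csf3, which drives neutrophil production, was at 0.419 and 0.448 FPKM in the controls and 28.0 and 52.8 FPKM with Aβ. The apoptosis ligand Tnfsf10 (TRAIL) was at 0.0562 and 0.175 FPKM without Aβ and 3.04 and 2.70 FPKM with it. The interleukin 1 antagonist Il1rn was at 1.29 and 0.926 FPKM without Aβ and 18.6 and 13.6 FPKM with it. The anti-inflammatory Il10 was listed at 0 in both controls and at 1.67 and 1.45 FPKM with Aβ. Clcf1, a ligand of the ciliary neurotrophic factor receptor, fell from 20.9 and 20.1 to 11.3 and 10.5 FPKM. The abundant osteopontin gene Spp1 (2584 and 2758 FPKM in the controls, 870.5 and 1364 FPKM with Aβ) and Mif (435 and 419 FPKM without Aβ and 404 and 497 FPKM with it) were not called.

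**Figure D3:**
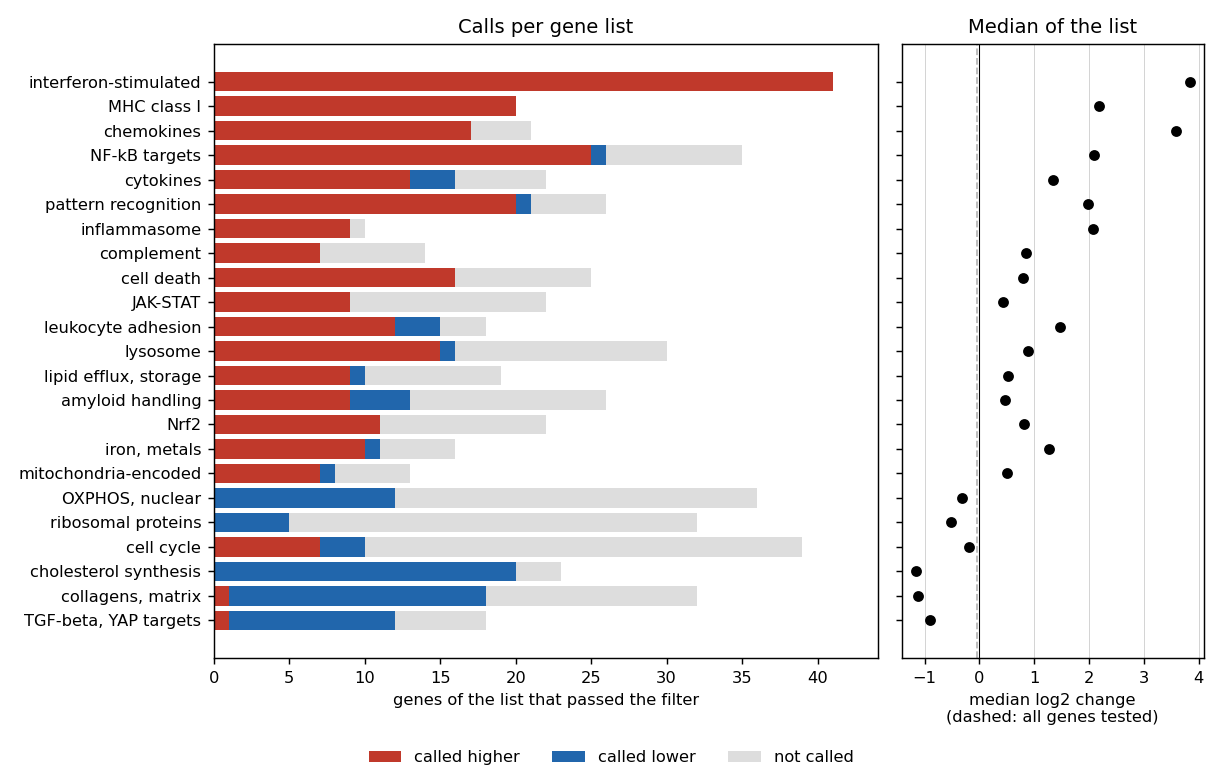
Left, the number of genes of 23 lists that passed the filter, split into called higher (red), called lower (blue) and not called (grey); right, the median log2 change of each list (points), with the median of all genes tested, -0.05, as a dashed line. All 41 interferon-stimulated genes were higher, and 20 of 23 cholesterol synthesis genes were lower.

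Receptors that sense aggregates and microbes rose at 20 of 26 measured members and fell at 1 (11 and 1 of the 16 detected throughout). Clec7a (dectin-1) was at 4.75 and 7.68 FPKM in the controls and 169 and 121 FPKM with Aβ. Fpr2, a formyl peptide receptor known to bind Aβ, was at 0.0913 and 0.0888 FPKM without Aβ and 16.1 and 7.86 FPKM with it. Stab1 (0.90) and Cd5l (1.94) were not called. Of inflammasome and pyroptosis genes 9 of 10 measured were higher and 0 lower, but only 4 were detected throughout, of which 3 were higher. Caspase 4 (Casp4, caspase-11 in mice), which senses lipopolysaccharide in the cytosol, was at 0.175 and 0.217 FPKM in the controls and 10.6 and 9.54 FPKM with Aβ. The DNA sensor Aim2 was at 0.642 and 1.05 FPKM without Aβ and 7.15 and 6.43 FPKM with it. Nlrp3, a sensor of aggregates and crystals, was at 1.63 and 2.40 FPKM without Aβ and 6.39 and 4.32 FPKM with it and was not called (adjusted p 0.066). Cell death regulators were higher at 16 of 25 members and lower at 0 (8, 15, 10 and 10 higher with a library left out). Zbp1, a sensor of Z-form nucleic acids that triggers necroptosis, was at 1.12 and 1.47 FPKM without Aβ and 41.6 and 46.0 FPKM with it. The caspase inhibitor Xiap was at 1.06 and 1.70 FPKM without Aβ and 7.11 and 7.22 FPKM with it. Bax (0.10) and Mcl1 (0.19) were not called.

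Complement genes were higher at 7 of 14 measured members (6 of the 13 detected throughout) and lower at 0. C4b was at 1.55 and 1.81 FPKM in the controls and 22.4 and 10.5 FPKM with Aβ. The protease C1ra was at 2.88 and 2.30 FPKM without Aβ and 11.9 and 9.94 FPKM with it. The anaphylatoxin receptor C3ar1 was at 9.52 and 16.5 FPKM without Aβ and 143 and 81.0 FPKM with it. The complement inhibitor Cd55 was at 0.634 and 0.830 FPKM without Aβ and 5.91 and 4.55 FPKM with it. C1qa and C1qb, made by microglia and macrophages, were not called (log2 changes 0.41 and 0.58). Leukocyte adhesion genes and integrins were higher at 12 of 18 members and lower at 3 (7 and 3 of the 13 detected throughout; lower at 2, 1, 1 and 1 with a library left out). The selectin ligand Selplg was at 3.50 and 4.38 FPKM without Aβ and 30.6 and 24.0 FPKM with it. The adhesion molecule Vcam1 was at 8.11 and 7.07 FPKM without Aβ and 57.8 and 51.5 FPKM with it. Itgb5, a subunit of a vitronectin receptor, fell from 264 and 212 to 83.6 and 68.5 FPKM. Summed macrophage markers were at 2619.7 and 4307 FPKM in the controls and 7782 and 5765 FPKM with Aβ, and their part in these calls was not tested.

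Of genes for handling amyloid 9 of 26 measured were higher and 4 lower, all 26 detected throughout, against 22.2% and 16.9% of all genes, so the lower count is near the share of all genes. The precursor gene App was not called (72.4 and 79.9 FPKM in the controls, 85.8 and 87.4 FPKM with Aβ). Adam10, the alpha-secretase that cuts the precursor within the Aβ sequence, was at 10.7 and 17.2 FPKM without Aβ and 42.7 and 42.8 FPKM with it (log2 change 1.58, SE 0.19). The beta-secretase Bace1 (11.9 and 10.1 to 5.90 and 5.98 FPKM) and its relative Bace2 (4.10 and 3.53 to 1.41 and 1.31 FPKM) fell. The receptor Lrp1, which takes up apolipoprotein E and Aβ, fell from 101 and 110.5 to 53.9 and 50.6 FPKM. The higher count dropped to 3, 5, 4 and 5 with a library left out, while the lower count was 4 each time. Apoe itself was not called (464 and 693 FPKM without Aβ and 397 and 595 FPKM with it).

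Genes of lipid efflux and storage were higher at 9 of 19 members and lower at 1 (7 and 1 of the 17 detected throughout; 5, 6, 6 and 5 higher and 0 lower each time with a library left out). The cholesterol exporters Abca1 and Abcg1 went from 3.65 and 4.97 to 28.4 and 24.3 FPKM and from 3.35 and 2.27 to 31.0 and 32.2 FPKM. Nr1h3, the oxysterol receptor LXR alpha that induces both, went from 2.19 and 2.17 to 11.7 and 8.48 FPKM. Cholesterol synthesis moved the other way. Of 23 measured genes 20 were lower, against 16.9% of all genes tested, and 0 higher, with a median log2 change of -1.16, and only Fdps of the list did not pass the filter. Mevalonate kinase (Mvk) fell from 21.8 and 20.7 to 5.72 and 6.76 FPKM (log2 change -1.62, SE 0.12, adjusted p 3.4e-05). Cyp51, the lanosterol demethylase, fell from 33.0 and 36.5 to 7.64 and 4.79 FPKM. Squalene epoxidase (Sqle) fell from 15.3 and 17.7 to 6.12 and 4.67 FPKM. The pathway's transcription factor Srebf2 fell from 34.1 and 33.3 to 18.2 and 17.4 FPKM. The 3 not called were Hmgcs1 (-0.66), Ebp (-0.33) and the sterol carrier Stard4 (0.08). The lower count was 20, 16, 18 and 16 with a library left out.

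Lysosomal genes were higher at 15 of 30 members and lower at 1 (8, 11, 8 and 13 higher with a library left out). Cathepsin L (Ctsl) was at 114 and 103 FPKM in the controls and 373 and 299 FPKM with Aβ. Legumain (Lgmn) was at 105 and 135 FPKM without Aβ and 548 and 376 FPKM with it. Cathepsin K (Ctsk), a collagen-degrading protease, fell from 40.6 and 28.3 to 9.53 and 7.41 FPKM. Cathepsin D (0.61) and Lamp1 (0.17) were not called. Of 18 autophagy genes 2 were higher and 3 lower; the receptor Tax1bp1 rose from 3.24 and 4.34 to 15.2 and 12.3 FPKM. Map1lc3a fell from 126 and 118 to 47.4 and 48.0 FPKM. Neither autophagy share exceeded that of all genes (22.2% higher and 16.9% lower). The autophagy counts were 2, 1, 1 and 1 higher and 2, 2, 1 and 1 lower with a library left out.

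Targets of Nrf2, the factor of the oxidative stress response, were higher at 11 of 22 members (9 of the 20 detected throughout) and lower at 0. The cystine importer Slc7a11 was at 0.272 and 0.538 FPKM in the controls and 13.9 and 7.69 FPKM with Aβ. Glutathione reductase (Gsr) was at 15.3 and 14.0 FPKM without Aβ and 49.3 and 39.6 FPKM with it. Iron genes were higher at 10 of 16 measured members and lower at 1 (8 and 1 of the 14 detected throughout). Lipocalin 2 (Lcn2), which binds bacterial iron carriers and marks reactive astrocytes, was at 16.4 and 13.3 FPKM without Aβ and 377 and 407 FPKM with it (log2 change 4.64, SE 0.32). The iron exporter Slc40a1 was at 1.12 and 1.37 FPKM without Aβ and 16.1 and 10.1 FPKM with it. Ferritin heavy chain (Fth1), the iron store, was at 2816 and 3402 FPKM in the controls and 13682 and 9993 FPKM with Aβ and had the highest level of any gene tested there. Its adjusted p was 0.012, and 0.089 without control replicate 1 and 0.084 without Aβ replicate 1. The light chain Ftl1 was not called (log2 change 0.62). Of enzymes of itaconate, arginine, nitric oxide and prostaglandin metabolism 9 of 17 were higher and 1 lower (5 and 1 of the 12 detected throughout; 6, 6, 5 and 7 higher and 0, 1, 0 and 1 lower with a library left out). Acod1, which makes the metabolite itaconate in activated macrophages, was at 0.293 and 0.483 FPKM without Aβ and 34.2 and 27.2 FPKM with it. The nitric oxide synthase Nos2 was at 0.241 and 0.117 FPKM without Aβ and 5.10 and 9.81 FPKM with it.

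Nuclear genes of oxidative phosphorylation were lower at 12 of 36 measured members and higher at 0, with every fitted change below 0 and a median of -0.31. Ndufa4 fell from 98.3 and 88.6 to 55.1 and 45.1 FPKM. Ndufv1, of complex I, fell from 51.9 and 47.0 to 30.1 and 26.5 FPKM. The lower count was 4, 11, 6 and 6 with a library left out. Ribosomal protein genes had fitted changes from -0.81 to -0.28 (median -0.51), of which 5 of 32 were called lower, near the 16.9% of all genes. That count was 0, 0, 0 and 1 with a library left out, 0 with no filter on low values, 2 under quantile normalization, 19 with the 4 libraries fitted alone, 21 with the replicate block, 27 with the crossed block and 32 without the AD experiment. Rps2 was at 1191 and 1097 FPKM in the controls and 578 and 734 FPKM with Aβ, with an adjusted p of 0.021 and of 0.12, 0.06 and 0.14 without control 1, control 2 and Aβ 1. In the other direction, 7 of 13 mRNAs of the mitochondrial genome were higher and 1 lower (6, 5, 4 and 7 higher and 0, 1, 1 and 0 lower with a library left out). mt-Nd6 was at 159.5 and 166 FPKM without Aβ and 421 and 368 FPKM with it. mt-Nd4 was at 166 and 199 FPKM without Aβ and 381 and 312 FPKM with it, while the abundant mt-Co1 was not called (-0.27). Glycolysis genes were higher at 6 of 24 and lower at 3 (3 to 5 higher and 0 to 1 lower with a library left out). The glycolysis counts stand against 22.2% higher and 16.9% lower of all genes. The glycolytic regulator Pfkfb3 rose from 6.54 and 6.61 to 22.3 and 23 FPKM. The glucose transporter Slc2a1 rose from 49.7 and 34.7 to 106 and 141 FPKM. Changes also ran with gene length in the deposited table. Protein-coding genes were divided by length into 4 classes of 2900 genes or nearly so. The shortest class (45 to 2701 bases) had a median log2 change of -0.22, with 15.8% called higher and 23.5% lower. In the longest class (6601 to 41324 bases) the median was 0.25, with 35.4% called higher and 9.97% lower. The part of gene length in the changes of these short and long genes was not tested.

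Of cell cycle genes 7 of 39 were higher and 3 lower, against 22.2% and 16.9% of all genes, with a median log2 change of -0.18 (2, 4, 3 and 2 higher and 1 lower each time with a library left out). The balance turned with a filter at 5 FPKM (1 higher, 3 lower) and with the 4 libraries alone (7 and 9). The mitotic checkpoint kinase Bub1 rose from 1.21 and 1.47 to 4.22 and 4.09 FPKM. The G1 cyclin Ccne1 fell from 24.4 and 21.3 to 10.8 and 11.3 FPKM. Of 18 p53 and senescence genes 2 were higher and 2 lower (1, 2, 1 and 1 higher and 1 lower each time with a library left out); Cdkn1a, the main p53 target that arrests the cycle, was at 270.3 and 242 FPKM without Aβ and 233 and 242 FPKM with it and was not called. Among unfolded protein response genes and chaperones 6 of 26 were higher and 4 lower (3, 6, 5 and 3 higher and 0, 3, 2 and 1 lower with a library left out), with a median of -0.10 that changed sign under quantile normalization (0.03). AP-1 and immediate early factors were higher at 4 of 21 and lower at 3 (3, 4, 4 and 4 higher and 1, 2, 1 and 2 lower with a library left out). The counts of chaperones and of AP-1 factors were near the 22.2% and 16.9% of all genes. The stress factor Atf3 rose from 6.73 and 7.67 to 69.7 and 58.2 FPKM. The chaperone Hsp90aa1 rose from 42.5 and 70.9 to 154 and 146 FPKM. The median of the chaperone list was also above 0 without control 1 (0.02). With the crossed block 6 genes of that list were higher and 11 lower.

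Collagens and matrix proteins were lower at 17 of 32 members and higher at 1, with a median log2 change of -1.11. Fibrillin 1 (Fbn1), the core of microfibrils, fell from 40.1 and 43.0 to 6.58 and 8.47 FPKM (log2 change -2.33, SE 0.19). The elastin cross-linker Loxl1 fell from 103 and 81.9 to 33.0 and 31.0 FPKM. Fbln5 fell from 11.4 and 11.8 to 2.10 and 1.59 FPKM. Col5a1 fell from 172 and 139 to 27.5 and 42.8 FPKM. The 1 higher member was decorin (Dcn), a proteoglycan of fibroblasts, from 12.4 and 5.32 to 88.0 and 140.4 FPKM (adjusted p 0.0093, and 0.061 without control replicate 2 and 0.059 without Aβ replicate 2). The lower count was 8, 12, 9 and 15 with a library left out. Sparc (-0.27) and fibronectin (Fn1, -0.17) kept high levels and were not called. Of matrix proteases and their inhibitors 5 of 23 were higher and 4 lower (2 and 4 of the 19 detected throughout; 3 to 6 higher and 1 to 2 lower with a library left out). Both counts over the 23 were near the shares of all genes (22.2% higher and 16.9% lower). The macrophage elastase Mmp12 rose from 6.41 and 8.26 to 207 and 176 FPKM. Mmp8 rose from 0.341 and 0.0237 to 21.2 and 24.6 FPKM. The inhibitor Timp2 fell from 934 and 1129.7 to 230.0 and 222 FPKM. Targets of TGF-beta and YAP were lower at 11 of 18 and higher at 1 (4, 8, 7 and 7 lower with a library left out). Ctgf, a target of both, fell from 1199 and 867 to 429.8 and 422 FPKM. Skil, a repressor of SMAD signalling, rose from 2.98 and 3.93 to 10.2 and 8.40 FPKM.

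Of 25 measured astrocyte markers 4 were called higher and 4 lower (median log2 change -0.18), near the shares of all genes (22.2% and 16.9%). Gfap was not called (62.3 and 60.1 FPKM in the controls, 77.6 and 29.1 FPKM with Aβ, adjusted p 0.47). The Gfap values with Aβ lay on either side of both controls. Gpr37l1, an astrocyte receptor, fell from 24.2 and 27.5 to 12.3 and 6.96 FPKM. Glutamine synthetase (Glul) was at 76.0 and 74.1 FPKM without Aβ and 173 and 113 FPKM with it (adjusted p 0.016, and 0.073, 0.063 and 0.12 without control 1, control 2 and Aβ 1). S100b was at 8.13 and 8.03 FPKM without Aβ and 38.7 and 17.7 FPKM with it (adjusted p 0.0096, and 0.055 and 0.069 without control 1 and Aβ 1). The thyroid hormone carrier Slco1c1 was at 1.35 and 1.47 FPKM without Aβ and 0.342 and 0.0648 FPKM with it, with its call lost without control 1, control 2 or Aβ 2 (adjusted p 0.06, 0.058 and 0.085). With a library left out the astrocyte list had 1, 1, 0 and 5 genes higher and 1, 1, 4 and 1 lower, and its median changed sign without Aβ 2 (0.09). Genes of glutamate handling were higher at 4 of 12 measured members and lower at 2 (2 and 2 of the 9 detected throughout; 2, 2, 2 and 5 higher and 1, 0, 0 and 0 lower with a library left out).

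Genes reported in reactive astrocytes of several injuries were higher at 6 of 12 and lower at 2, but of the 10 detected throughout 4 were higher and 2 lower (median 0.02, against 0.80 over the 12; of the 12, higher at 6 in every case and lower at 0, 1, 1 and 1 with a library left out). Ceruloplasmin (Cp) was at 4.20 and 5.09 FPKM in the controls and 62.7 and 55.7 FPKM with Aβ, and the metalloreductase Steap4 at 0.0937 and 0.237 FPKM without Aβ and 16.6 and 25.6 FPKM with it. Vimentin (Vim, -0.67) and Hspb1 (-0.86) were not called. Of genes reported for astrocytes after endotoxin (often called A1) 7 of 11 measured were higher and 1 lower (6 and 1 of the 10 detected throughout), led by Srgn (9.64 and 10.1 to 68.0 and 70.4 FPKM) and by 3 interferon-related members, H2-T23, Psmb8 and Iigp1 (log2 changes 2.89, 3.43 and 4.36). Of those reported after ischaemia (A2) 2 of 10 were higher and 3 lower (0, 2, 1 and 1 higher and 1, 3, 1 and 2 lower with a library left out). S100a10 fell from 309 and 312 to 106 and 110.0 FPKM (adjusted p 0.052 without control 1 and 0.051 without Aβ 1). Growth factors were higher at 6 of 21 measured members and lower at 3 (5 and 2 of the 19 detected throughout; 2, 2, 3 and 3 higher with a library left out). The neurotrophin Bdnf fell from 10.4 and 10.9 to 2.67 and 2.46 FPKM and Ntf3 from 1.76 and 1.51 to 0.172 and 0.229 FPKM. Bmp4 rose from 2.66 and 5.22 to 14.9 and 24.1 FPKM. Of the O-GlcNAc list, the pathway named in the series title, 1 of 12 measured genes was higher and 2 lower (1, 2, 1 and 0 higher and 1 lower each time with a library left out). The transferase Ogt was at 7.85 and 10.4 FPKM without Aβ and 12.4 and 10.6 FPKM with it. The hydrolase Oga (listed as Mgea5) was at 12.3 and 16.5 FPKM without Aβ and 21.6 and 19.4 FPKM with it, and neither was called.

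Among markers of other cell types, those of oligodendrocytes were higher at 13 of 14 (median log2 change 2.33), of which 6 were detected throughout and 5 of those higher. Their summed level was 38.2 and 30.2 FPKM in the controls and 368 and 191 FPKM with Aβ. The tight junction protein Cldn11 of myelin was at 1.33 and 1.57 FPKM without Aβ and 44.6 and 20.7 FPKM with it. Olig2, found in precursors as well, was not called (0.41). Endothelial markers were higher at 11 of 15 measured members (6, 5, 7 and 4 with a library left out, 7 with no filter on low values and 15 with the 4 libraries alone), with sums of 369 and 295 FPKM in the controls and 963 and 1339.9 FPKM with Aβ. The endothelial transcription factor Erg was at 2.85 and 2.71 FPKM without Aβ and 57.9 and 80.9 FPKM with it. Pecam1 was at 23.3 and 12.8 FPKM without Aβ and 117 and 166 FPKM with it. The junctional cadherin Cdh5 was at 149 and 135 FPKM without Aβ and 237 and 339.8 FPKM with it and was not called. Oligodendrocyte sums were higher in Aβ replicate 1 and endothelial sums in Aβ replicate 2.

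Microglia and macrophage markers were higher at 11 of 20 measured members and lower at 2 (6, 10, 6 and 10 higher and 0, 1, 0 and 1 lower with a library left out). The macrophage marker Adgre1 (F4/80) was at 11.4 and 19.8 FPKM in the controls and 236 and 119.5 FPKM with Aβ. The leukocyte antigen Ptprc (CD45) was at 0.220 and 0.321 FPKM without Aβ and 5.22 and 2.71 FPKM with it. The 2 lower members were the genes of resting microglia Cx3cr1 (4.37 and 8.68 to 0.996 and 0.286 FPKM) and Tmem119 (20.1 and 12.2 to 2.55 and 5.05 FPKM). The Cx3cr1 call was lost with any of the 4 libraries left out (adjusted p 0.051, 0.12, 0.057 and 0.12), and that of Tmem119 without control 1 or Aβ 1 (0.14 and 0.13). P2ry12 of the same list did not pass the filter and went the other way, from 0.441 and 0.430 to 1.69 and 0.858 FPKM. Siglech was at 0 in all 4 libraries. Of genes of disease-associated microglia 9 of 17 were higher and 2 lower (7 and 2 of the 14 detected throughout; 0, 1, 0 and 1 lower with a library left out); Gpnmb was at 30.7 and 44.3 FPKM without Aβ and 542 and 389.8 FPKM with it. Galectin 3 (Lgals3) was at 87.0 and 92.5 FPKM without Aβ and 368 and 285 FPKM with it. Pericyte and smooth muscle markers were lower at 7 of 8 measured members. Their sum, most of which was Acta2, went from 4634 and 4158 FPKM to 508 and 447 FPKM. Of the 4 members below the filter, Rgs5 went from 0.468 and 0.431 to 0.974 and 0.702 FPKM. Vtn went from 1.28 and 0.964 to 0.174 and 0.248 FPKM, and Kcnj8 and Abcc9 were at most at 0.232 FPKM. The pericyte receptor Pdgfrb fell from 83.8 and 65.3 to 12.8 and 12.2 FPKM, and Notch3 was not called (-0.09). Fibroblast and meningeal markers were lower at 6 of 13 and higher at 1 (3, 5, 3 and 5 lower with a library left out). Both measured mesothelial and epithelial markers, Msln and Krt19, were lower. Neuron markers were higher at 2 of 6 measured members (log2 changes of Nefl 1.55 and Nefm 0.91) and lower at 2 (Stmn2 -1.78 and Tubb3 -1.04). With no filter on low values the 2 lower calls were lost (adjusted p 0.064 and 0.078). The neuron list summed to 130.2 and 102 FPKM in the controls and 62.3 and 53.5 FPKM with Aβ, with Snap25, Rbfox3 and Map2 below the filter. Lymphocyte and neutrophil markers summed to at most 11.4 FPKM in any of the 4 libraries, with 6 of 14 genes, such as Cd3g and Cd8a, at 0 in all 4, and red blood cell markers to at most 0.122 FPKM. The part of these shifts in the changes of inflammatory, matrix and contractile genes was not tested.

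**Figure D4:**
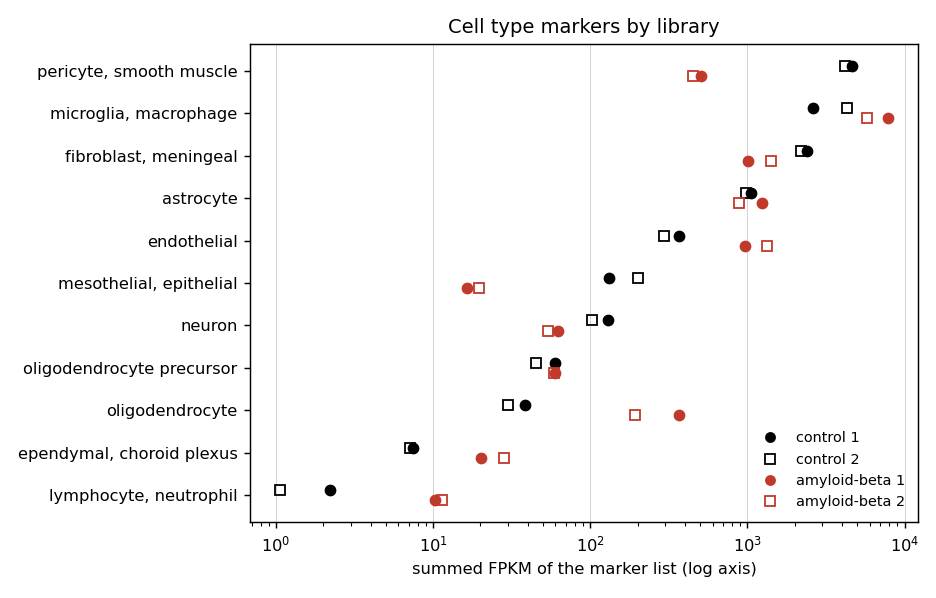
Summed FPKM (log axis) of 11 lists of cell type markers in each of the 4 libraries (black for controls, red for Aβ; filled circles for replicate 1, open squares for replicate 2). Pericyte and smooth muscle markers summed to 4158 and 4634 FPKM in the controls and 447 and 508 FPKM with Aβ, oligodendrocyte and endothelial sums were higher with Aβ, and the astrocyte sums of the 2 groups overlap.

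Transcription factor genes were called higher at 215 of 752 tested (28.6%) and lower at 100 (13.3%). Interferon regulatory factors were higher at 6 of 7 (Irf1, Irf2, Irf5, Irf7, Irf8 and Irf9) and ETS family factors at 10 of 17, among them Spi1 of myeloid and Erg of endothelial cells. The ETS share was not particular to that family: MBD factors were higher at 6 of 9, Pou factors at 3 of 5 and ARID factors at 8 of 14. Homeobox factors were higher at 7 of 49 and lower at 17, among them Prrx2 and Msx1. Called genes also lay side by side on chromosomes. Runs of at least 6 neighbouring tested genes called in the same direction included 11 at chr1:173350879-174031810 from Aim2 to Ifi205, the interferon-inducible Ifi200 family, and 11 at chr6:48647234-49071936 that held the Gimap genes and Gpnmb. The run at chr11:83473086-83706268 held 7, Ccl genes with Taf15 and Wfdc17. The run at chr19:34492318-34650009 held 6, Ifit genes with Lipa, and the Oas run at chr5:120730333-120907521 held 6, all higher. Other runs were not of 1 family, such as 8 higher genes from Kctd12 to Ednrb and 8 lower ones from Ptprn to Tmem198. How many runs to expect with 39.0% of all genes called was not tested. The run at chr9:5298517-7369499 joined Casp1, Casp4 and Casp12 with Mmp13 and Mmp12. Many neighbours in these runs are gene duplicates, so reads could be split between them and their calls are not independent. Coordinates are those of the deposited table (mm10).

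The changes with Aβ were then set beside those in astrocytes of the AD model, whose controls are other libraries. Over the 12773 genes the log2 changes of both experiments correlated with a Pearson r of 0.707 and a Spearman rho of 0.543, as a description across genes. Marker sums of both experiments moved the same way for pericytes and smooth muscle (4299 and 1818 FPKM in the model's controls, 804 and 219.8 FPKM in the model) and for macrophages (1370.1 and 1910.2 FPKM, and 4349 and 7436 FPKM), and their part in the correlation was not tested. In the AD model 1322 genes (10.3%) were higher and 906 (7.09%) lower at an adjusted p under 0.05. Genes higher in both numbered 958, which is 33.8% of those higher with Aβ and 72.5% of those higher in the model. Genes lower in both numbered 569, which is 26.4% and 62.8%. Opposite calls numbered 22 genes higher with Aβ and lower in the model and 27 the other way. The interferon list had a median of 3.84 with Aβ and 3.62 in the model, chemokines 3.59 and 3.04, MHC class I 2.19 and 2.48, and cholesterol synthesis -1.16 and -0.62. Cxcl1 changed by 7.48 with Aβ and 6.30 in the model, and Irf7 by 5.40 and 5.81.

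The 2 effects differed at an adjusted p under 0.05 for 827 genes (6.47%), 616 with the Aβ effect higher (4.82%) and 211 with it lower (1.65%). Without control 1, control 2, Aβ 1 or Aβ 2 the total was 196, 830, 199 and 316. Cd200, which restrains macrophages, changed by 2.82 with Aβ and -0.22 in the model, a difference of 3.04 (SE 0.72) whose adjusted p was 0.13, 0.081, 0.088 and 0.13 with a library left out. Filip1l changed by 2.47 and -0.54 (difference 3.01, SE 0.41, adjusted p 0.0073). The oligodendrocyte lineage factor Olig1 changed by 0.72 with Aβ, which was not called, and -2.34 in the model (difference 3.06, SE 0.41, adjusted p 0.0073). Lower with Aβ relative to the model were Ptges, the inducible prostaglandin E synthase (-1.22 with Aβ and 1.47 in the model, difference -2.69), and the extracellular protein Coch (-2.41 and 0.43, difference -2.84). The Ptges difference had an adjusted p of 0.055 without control 1 and 0.053 without Aβ 1. Of the mitochondrially encoded mRNAs 6 of 13 differed, and of cell cycle genes 5 of 39, whose median was -0.18 with Aβ and 1.01 in the model. These differences also ran with gene length, which was not tested as a source: 11.6% of protein-coding genes in the longest class were higher with Aβ than in the model, against 1.62% in the shortest. Summed markers of oligodendrocyte precursors were at 266.8 and 161 FPKM in the model's controls and 67.1 and 65.6 FPKM in the model, against 59.8 and 45.4 FPKM without Aβ and 60.0 and 58.9 FPKM with it, and their part in these differences was not tested. The median change in the model was -0.02 in the longest class and -0.05 in the shortest.

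**Figure D5:**
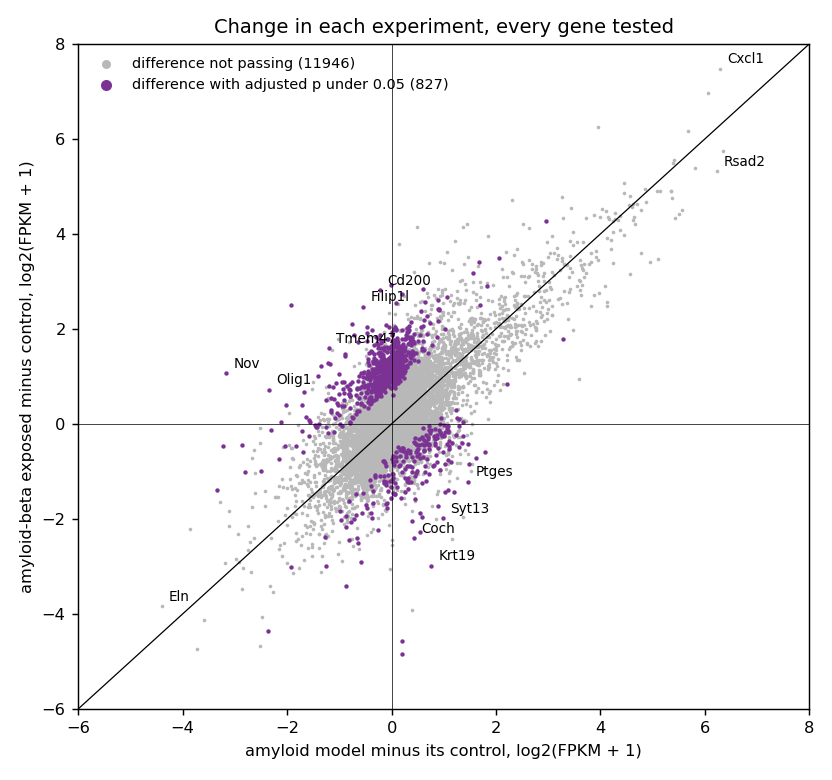
Log2 change of each of the 12773 genes in the AD model (x axis) and with Aβ (y axis), with the line of equal changes in black and the 827 genes whose difference had an adjusted p under 0.05 in purple. Cxcl1 and Rsad2 rose in both experiments, while Cd200, Filip1l and Krt19 lie away from the line.

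Against the Ogt cKO the relation was inverse, with a Pearson r over genes of -0.233 and a Spearman rho of -0.350. In the cKO 5523 genes (43.2%) passed an adjusted p under 0.05, 3113 higher (24.4%) and 2410 lower (18.9%). Of the genes higher with Aβ, 246 (8.68%) were higher and 922 (32.5%) lower in the cKO, and of those lower with Aβ 135 (6.27%) were lower and 972 (45.1%) higher. The effects differed at an adjusted p under 0.05 for 6903 genes (54.0%), with the Aβ effect higher at 26.3% and lower at 27.8% of those tested. The NF-kB list had a median log2 change of 2.10 with Aβ and 2.00 in the cKO, whereas the interferon list had 3.84 and 0.23. Cxcl2 rose in both (4.80 with Aβ and 5.26 in the cKO), as did Il1b (4.05 and 5.41), while Irf7 changed by 5.40 and 0.29. Among the largest differences, Actg2 changed by -4.74 with Aβ and 4.47 in the cKO (difference -9.21, SE 1.39), and Msln by -3.41 and 6.01 (difference -9.41). Apod, a lipid-binding protein, did so the other way (3.09 with Aβ and -4.64 in the cKO). Of the marker sums of the cKO experiment, pericyte and smooth muscle markers were at 1071.5 and 533 FPKM in its controls and 4679 and 4799.5 FPKM in the cKO, and macrophage markers at 10181 and 8102 FPKM and at 4552 and 3405 FPKM, both opposite to the change with Aβ. Endothelial sums were higher in both experiments (63.7 and 53.9 FPKM in the cKO controls, 305 and 297 FPKM in the cKO). The median change in the cKO was 0.26 in the shortest and -0.20 in the longest class of protein-coding genes, opposite to that with Aβ. The part of markers and of gene length in the inverse relation was not tested. Mice were 2 months old here, 6 months in the AD experiment and 4 months in the cKO experiment, so age and experiment cannot be told apart.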

How the data were processed

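RNA sequencing of bulk cultures gave a deposited table of FPKM per gene; per the submitters' processing notes the genome was mm10, while the sources used here name no aligner, counter or annotation and do not say how strand and multi-matching reads were handled. FPKM times gene length gave whole reads (within 0.1 read). Reads over the library size behind the FPKM ran from 0.886 to 1.098 across the 12 libraries, so that size was not the read total. A median-of-ratios factor, the median over genes of each level against its mean over libraries, was 1.011 in every library. By that measure the deposited FPKM were already scaled alike. The deposited FPKM of the 4 libraries were put on the log2(FPKM + 1) scale after a filter of at least 1 FPKM in 2 of them, and log2 changes were fitted with limma 3.58.1 (R 4.3.3). The fit had 6 group means over all 12 libraries sharing 1 spread, a trend of the spread with intensity, and two-sided p-values adjusted by Benjamini and Hochberg's method over the 12773 genes; every adjusted p in the text comes from it or from its stated alternative. Differences between experiments were contrasts of the same fit. Summaries and figures used Python 3.11.15, pandas 2.3.3 and matplotlib 3.10.9, and the scripts were tested on simulated data. The members and lists were chosen with earlier results of these data known. Genes named are the 12 largest rises and falls, per list up to 4 called members with the smallest p and 2 uncalled members with the highest FPKM, the 6 most abundant genes, Ogt and Oga, and the 5 largest differences per direction between experiments. Gfap, Aqp4, Aldh1l1, App, B2m, Bace1, Csf1, Cx3cr1, H2-K1, Il6, Stard4, Tmem119, Tnf and the genes in chromosomal runs and factor families were named after their values were seen. Some genes that these rules name are not reported here. Alternatives were other pseudocounts, filters, scalings, sets of libraries and a count-based fit (voom) on the recovered reads.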

Additional observations from a re-analysis of the deposited data

Results flagged for a closer look

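Effects that differed between experiments, by the contrast of both in limma with adjusted p under 0.05, were these. Against the AD model 827 genes differed. Among genes that met the level and name limits given above, the 5 largest differences with Aβ higher, in log2 units, were Nov (4.23), Olig1 (3.06), Cd200 (3.04), Filip1l (3.01) and Tmem47 (2.80). The 5 with Aβ lower were Krt19 (-3.74), Syt13 (-2.97), Coch (-2.84), Mir3060 (-2.82) and Ptges (-2.69). With a library left out the adjusted p of Krt19 was 0.13, 0.098, 0.14 and 0.10, in the order control 1, control 2, Aβ 1, Aβ 2. The difference of Nov was not past the threshold without control 1 or Aβ 1 (0.081 and 0.074), that of Tmem47 without control 1, Aβ 1 or Aβ 2 (0.083, 0.085 and 0.053), and that of Syt13 without control 1 or Aβ 1 (0.057 and 0.072). Against the Ogt cKO 6903 genes differed. Among the largest with Aβ higher were Lpl (7.83), Apod (7.73), Selenop (7.17) and Gpnmb (6.58), and with Aβ lower Msln (-9.41), Actg2 (-9.21), Crct1 (-8.77), Krt19 (-8.53) and Lce1h (-8.37).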

How the results depend on the processing

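No gene called in the main comparison was called in the opposite direction under any alternative run. Except where the libraries were rescaled, the non-overlap rule was applied to the same FPKM. A call could there be lost but not reversed, so the lack of reversals is no measure of stability. The 4986 calls became 2735 to 4113 with 1 library left out (1805 to 2607 higher, 930 to 1506 lower), where the lone sample of a group is assumed to vary like the other groups. The 827 differences from the AD model became 196 to 830 and the 6903 from the cKO 5482 to 6285. A test against a minimum log2 change of 1 left 442 calls (374 higher, 68 lower), 0 differences from the model (255 at an unadjusted p under 0.05) and 1245 from the cKO. A filter at 5 FPKM left 1654 higher genes and 440 differences from the model, on fewer genes tested. The fit of 8 libraries without the AD experiment called 3703 lower genes; the cause was not tested. The labels number replicates 1 and 2 in each group and state no pairing. Deviations of same-numbered libraries correlated at -0.191 over genes, which with 2 libraries per group cannot settle whether the numbers pair them. With the replicate block 6037 genes were called and 1346 differed from the model, and the crossed pairing, added after seeing the data, gave 6582 and 1963. The fit with voom on recovered reads, all of which came out whole (100% within 0.1 read), called 4839 genes. No alternative changed the depth, so what depth limits was not tested.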
